A study of Mus musculus with 15 samples.

Results

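The genes described here make, move and control cholesterol: 20 enzymes of its synthesis and branches, 4 genes of the sterol-sensing control system and 3 carriers or transporters of sterols. They were taken by symbol from a list of 27 genes, and all 27 were found among the 21839 genes of the count table and among the 13887 genes with enough reads to be tested. RNA was sequenced from lymphatic endothelial cells of C57bl/6 mice aged 10 weeks, which carried transplants of a mouse melanoma line described as lymphangiogenic. The cells were sorted as negative for CD45 and positive for CD31 and gp38 from 3 sites, with 5 libraries from each: the tumor itself (Tumor), the lymph node that drains it (TdLN) and a lymph node that does not (NdLN). All 3 groups thus came from tumor-bearing mice, none from tumor-free mice, and the labels name no genetic change or treatment. They do not tell whether a library was 1 animal or a pool, and the p-values therefore rest on library-to-library spread, which may be technical.

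Cholesterol is built from acetyl-CoA through mevalonate, isoprenoid intermediates, squalene and lanosterol. The transcription factor SREBP2, encoded by Srebf2, raises transcription of most enzymes of the route when membranes of the endoplasmic reticulum run low in sterol. SCAP then carries SREBP2 to the Golgi for cleavage, while the INSIG proteins, bound to sterols, hold the complex back. The oxysterol 25-hydroxycholesterol, named in the title of the series, is a known ligand of INSIG and a repressor of this system, and endothelium also takes up cholesterol in lipoproteins, which leaves the lysosome through NPC2 and NPC1.

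Total counts ran from 31894931 to 37437282 for NdLN, from 32134127 to 37043976 for TdLN and from 23830337 to 34577494 for the Tumor group. Levels are counts per 1000000 (CPM), scaled by the library total and edgeR's TMM factor. Of the genes that check the sort, Ptprc (CD45) was at 1.10 ± 0.943 CPM in TdLN and 1.68 ± 1.45 CPM in Tumor libraries, and Pecam1 (CD31) at 1179 ± 87.1 and 276 ± 86.7 CPM (SD, n = 5). Pdpn (gp38) was at 120 ± 15.4 CPM in TdLN and 116 ± 46.4 CPM in Tumor libraries, whereas Prox1, the factor that keeps lymphatic identity, was at 539 ± 74.9 and 105 ± 22.7 CPM. The marker counts use an edgeR adjusted p under 0.05. By that rule 31.9% of all tested genes were higher in Tumor than in TdLN libraries and 30.1% were lower. Of the 8 lymphatic markers 4 were lower in Tumor than in TdLN libraries, and 2 did not pass. The 2 higher ones were Reln (35.4 ± 7.81 and 83.7 ± 23.3 CPM) and Ccl21a (135 ± 71.0 and 1227 ± 367 CPM), whose reads can be split between near-identical copies. The 9 pigment cell markers summed to 12.0 to 33.2 CPM in TdLN, 17.8 to 37.8 CPM in NdLN and 24375 to 40008 CPM in Tumor libraries, and all 9 were higher in Tumor. In the same libraries 8 of 8 macrophage markers were higher (101.8 to 238 CPM summed, against 12.9 to 45.0 in TdLN), as were 7 of 8 fibroblast and reticular markers (857 to 5830 CPM summed, against 102 to 285) and 9 of 10 cell cycle genes (1730 to 1938 CPM, against 198 to 784). The 7 pan-endothelial markers were all lower, at 3851 to 4457 CPM summed in TdLN and 1329 to 1971 CPM in Tumor libraries. Every Tumor library held these transcripts, so none of the Tumor values below could be given without them, and their part in the differences was not tested. The node libraries held markers of blood endothelium. These 8 genes summed to 2917 to 7334 CPM in TdLN, 2922 to 6013 CPM in NdLN and 453 to 1061 CPM in Tumor libraries. Plvap (3325 ± 1993 CPM in TdLN, 2501 ± 1942 in NdLN) and Glycam1 (2022 ± 278 and 1454 ± 526) made up most of the node sums. Between the nodes 0 of the 8 were higher in TdLN libraries and 3 were lower, beside 1.84% and 1.64% of all tested genes. Of the 8, 4 were lower in Tumor than in TdLN libraries, 2 were higher and 2 did not pass. Emcn is counted both in this list and in the pan-endothelial one. The part of the blood endothelial markers was not tested either. Between the nodes, 9 of the 10 cell cycle genes were higher in TdLN than in NdLN libraries, beside 1.84% of all tested genes. Their sums in NdLN libraries were 124 to 190 CPM, and their part in the values below was not tested. In such bulk material fewer cells of a type and less RNA per cell cannot be told apart.

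How did cholesterol genes differ between lymphatic cells sorted from the tumor and those of the draining node? Of the 27 genes, 20 were higher in Tumor and 2 were lower at a Benjamini-Hochberg adjusted p under 0.05 in edgeR's quasi-likelihood test, and 5 did not pass. Among all tested genes 31.9% were higher and 30.1% were lower by the same rule, 62% in all. The median log2 fold change was 1.57 over the 27 genes and 0.04 over all tested genes, and 17 of the 27 were higher by more than 1 on the log2 scale, against 18.9% of all tested genes. For the 20 higher and the 2 lower genes no Tumor library overlapped any TdLN library, which held for 24.1% (higher) and 22.5% (lower) of all tested genes. Summed, the 27 genes held 0.152% to 0.179% of all counts in TdLN libraries and 0.386% to 0.421% in Tumor libraries. The plot of CPM by library shows each gene in each group.

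**Figure D1:**
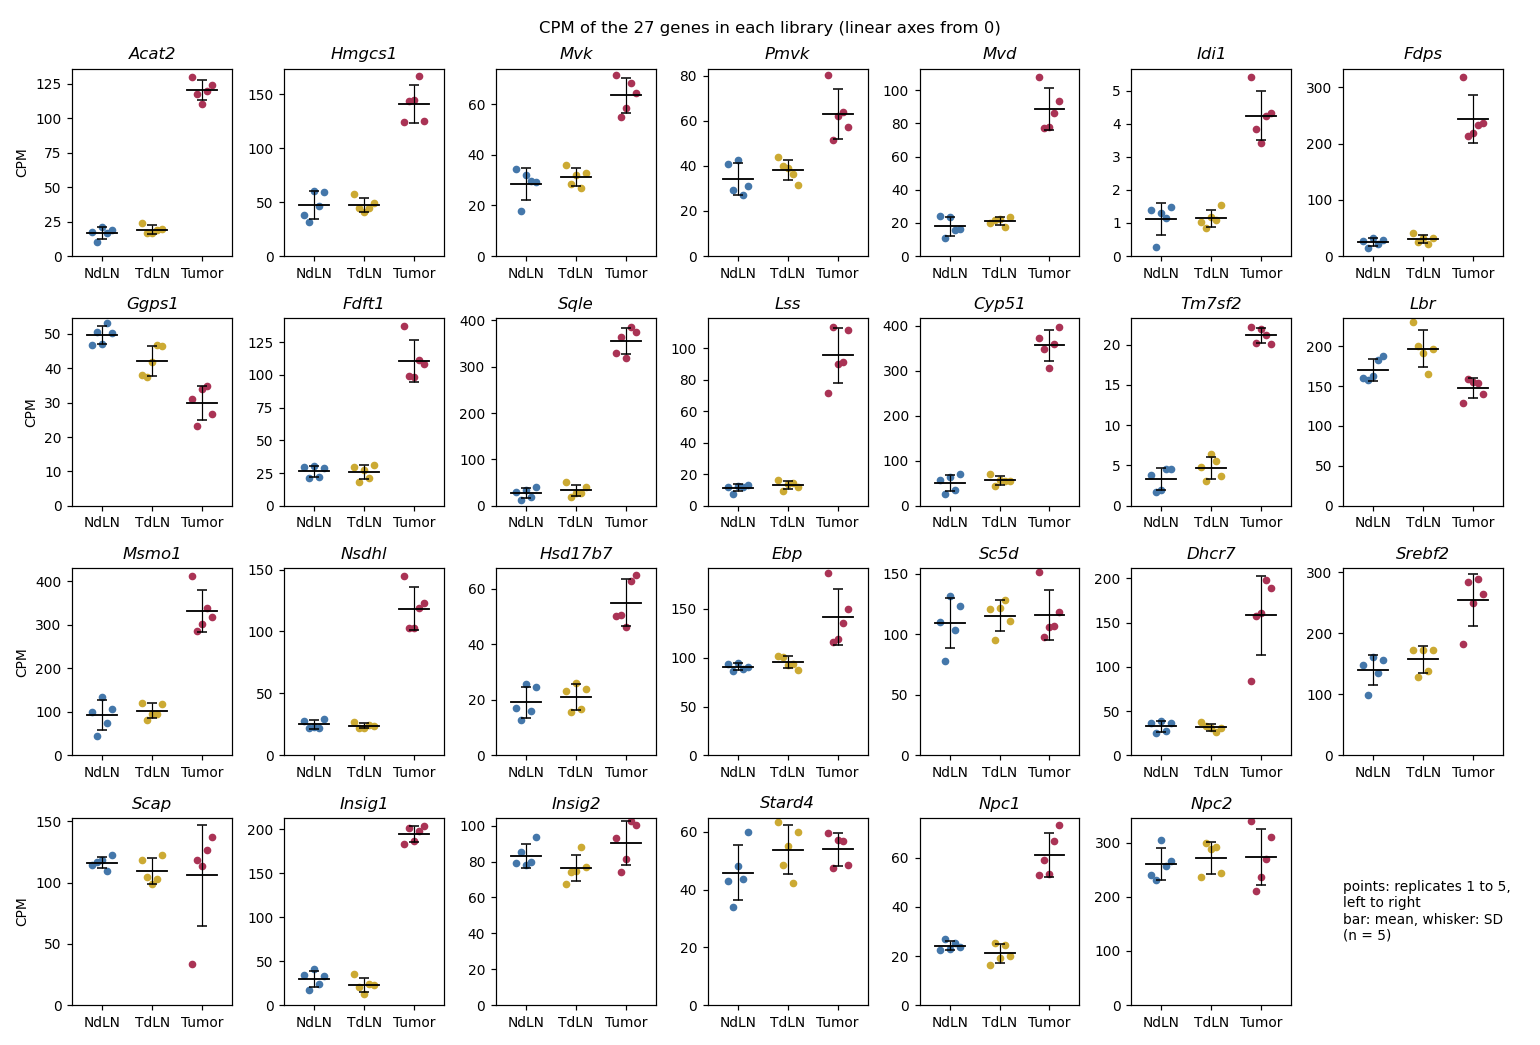
CPM (vertical axes, linear, each from 0) of the 27 genes in the 5 libraries of NdLN, TdLN and Tumor. Points are replicates 1 to 5 from left to right, and bars and whiskers give the mean and SD. For 20 genes all Tumor points lie above all TdLN points, Ggps1 and Lbr show the opposite order, and Scap in Tumor 1 (33.4 CPM) lies far below the other Tumor libraries.

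The early enzymes lead from acetyl-CoA to farnesyl diphosphate, and the 7 listed genes of this stretch all rose, while Ggps1, which acts after it, fell. Acat2, the cytosolic thiolase that joins 2 acetyl-CoA units, stood at 24.1, 16.7, 16.8, 18.6 and 19.5 CPM in TdLN 1 to 5 and at 130.0, 118, 111, 119.6 and 124 CPM in Tumor 1 to 5. The Tumor libraries lay close together and far above the node libraries, by 2.65 ± 0.17 on the log2 scale (SE, edgeR adjusted p = 3.79e-09). Fdps, which makes farnesyl diphosphate, stood at 41.1, 24.8, 32.2, 21.6 and 32.8 CPM in TdLN and at 318, 213, 219, 233 and 237 CPM in Tumor libraries, a log2 fold change of 3.00 ± 0.24. Tumor 1 was its highest library.

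Hmgcs1, the synthase of HMG-CoA, rose from 47.4 ± 6.27 to 141 ± 17.6 CPM (log2 fold change 1.57 ± 0.17), and Mvd, the decarboxylase that ends the mevalonate stretch, from 21.1 ± 2.46 to 88.5 ± 12.8 CPM (2.07 ± 0.20). The 2 kinases between them moved least of those that rose: Mvk by 1.03 ± 0.16 and Pmvk by 0.72 ± 0.15 on the log2 scale. Idi1, the isomerase of isopentenyl diphosphate, rose by 1.89 ± 0.38 from a very low level, 1.14 ± 0.256 CPM in TdLN and 4.24 ± 0.740 CPM in Tumor libraries, so its interval is wide (95% interval 1.07 to 2.70).

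Ggps1 stood apart. It extends farnesyl to geranylgeranyl diphosphate and so leads away from sterols towards protein prenylation. It was at 38.0, 37.5, 41.8, 46.7 and 46.6 CPM in TdLN 1 to 5 and at 31.1, 23.3, 33.9, 34.9 and 26.7 CPM in Tumor 1 to 5, with no overlap. On the log2 scale the difference was -0.49 ± 0.12 (edgeR adjusted p = 0.00235).

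Squalene formation, its epoxidation and the closing of the ring rest on 3 genes. All 3 rose (median 2.86 on the log2 scale). Sqle, the squalene epoxidase, stood at 51.1, 18.02, 28.0, 28.0 and 40.0 CPM in TdLN 1 to 5 and at 330, 365, 320.0, 386 and 376 CPM in Tumor 1 to 5. The log2 fold change was 3.43 ± 0.32 with an edgeR adjusted p of 2.50e-07, the highest change of the 27 genes in this comparison. Lss, the lanosterol synthase, rose from 13.2 ± 2.56 to 95.6 ± 17.4 CPM (2.86 ± 0.19), and Fdft1, the squalene synthase, from 25.6 ± 5.49 to 111 ± 15.9 CPM (2.11 ± 0.17).

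Of the 9 genes that turn lanosterol into cholesterol 7 rose, 1 fell and 1 did not pass. Cyp51, the lanosterol demethylase, stood at 70.3, 43.3, 57.5, 55.8 and 55.9 CPM in TdLN 1 to 5 and at 373, 348, 305, 359.9 and 398 CPM in Tumor 1 to 5 (log2 fold change 2.66 ± 0.23). Nsdhl, a dehydrogenase of the demethylation complex, had the smallest adjusted p of the 27 genes (2.31 ± 0.13, edgeR adjusted p = 8e-10). Dhcr7, which carries out a last reduction, rose by 2.31 ± 0.20, although Tumor 1 at 84.6 CPM was well under the 158 to 199 CPM of the other Tumor libraries. Msmo1 (1.69 ± 0.23) and Hsd17b7 (1.38 ± 0.21), which act in the same demethylation as Nsdhl, rose as well, and Ebp, the sterol isomerase, rose by only 0.57 ± 0.12.

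The sterol C14 reductases gave opposite results. Tm7sf2 stood at 4.82, 3.04, 6.45, 5.52 and 3.64 CPM in TdLN 1 to 5 and at 22.2, 20.2, 21.9, 21.1 and 20.1 CPM in Tumor 1 to 5 (log2 fold change 2.17 ± 0.29, edgeR adjusted p = 9.9e-06). Lbr, which encodes a lamin B receptor of the inner nuclear membrane with the same reductase activity, stood at 229.97, 201, 192, 166 and 197 CPM in TdLN and at 129, 159, 155, 153 and 141 CPM in Tumor libraries (-0.42 ± 0.10, edgeR adjusted p = 0.00155). Lbr remained the more abundant transcript per length in both groups, at 42.0 ± 3.57 CPM per kilobase of principal transcript in Tumor libraries against 14.4 ± 0.657 for Tm7sf2. Sc5d, the lathosterol desaturase, was at 115 ± 12.99 CPM in TdLN and 116 ± 20.9 CPM in Tumor libraries, a log2 difference of 0.01 with a 95% interval from -0.31 to 0.32.

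Within the control system, Insig1 had the second highest log2 fold change of the 27 genes. It is itself a known SREBP target and encodes a protein that retains SCAP. Its CPM was 35.2, 20.2, 12.2, 24.002 and 23.1 in TdLN 1 to 5 and 184, 202, 187, 198 and 203 in Tumor 1 to 5, higher by 3.09 ± 0.26 on the log2 scale (edgeR adjusted p = 1.00e-07). Its paralog Insig2 was at 76.3 ± 7.31 CPM in TdLN and 90.4 ± 12.3 CPM in Tumor libraries, which overlapped (0.24 ± 0.11, edgeR adjusted p = 0.0559). It passed under 3 of 19 alternatives, with voom (adjusted p = 0.0463) and without TdLN 4 (0.0307) or Tumor 2 (0.0293). Per kilobase of transcript Insig2 was the more abundant of the pair in TdLN libraries (28.3 ± 2.71 against 8.503 ± 3.07 CPM per kilobase), and Insig1 was in Tumor libraries (72.3 ± 3.29 against 33.5 ± 4.56).

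Srebf2 stood at 173, 129, 173, 139 and 172 CPM in TdLN 1 to 5 and at 182, 284, 249, 289 and 265 CPM in Tumor 1 to 5. Every Tumor library was above every TdLN library, Tumor 1 only slightly, and the log2 fold change was 0.69 ± 0.15 (edgeR adjusted p = 0.000939). Scap was at 118, 104, 99.2, 103 and 123 CPM in TdLN and at 33.4, 118, 113, 126 and 138 CPM in Tumor libraries. Its log2 difference of -0.05 ± 0.25 did not pass, and without Tumor 1 it was 0.18 (edgeR adjusted p = 0.0761).

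Of the 3 genes of sterol transport 1 rose. Npc1, the lysosomal membrane protein that exports cholesterol, stood at 16.4, 25.2, 19.1, 24.5 and 20.2 CPM in TdLN 1 to 5 and at 53.2, 59.1, 53.4, 67.0 and 73.5 CPM in Tumor 1 to 5 (log2 fold change 1.54 ± 0.14, edgeR adjusted p = 1.68e-07). Its soluble partner Npc2 was at 272 ± 29.6 CPM in TdLN and 274 ± 52.4 CPM in Tumor libraries (log2 difference 0.01, 95% interval -0.27 to 0.29). Stard4, a cytosolic carrier of cholesterol and a known SREBP2 target, was at 53.9 ± 8.56 CPM in TdLN and 53.9 ± 5.56 CPM in Tumor libraries (0.00, 95% interval -0.32 to 0.32).

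**Figure D2:**
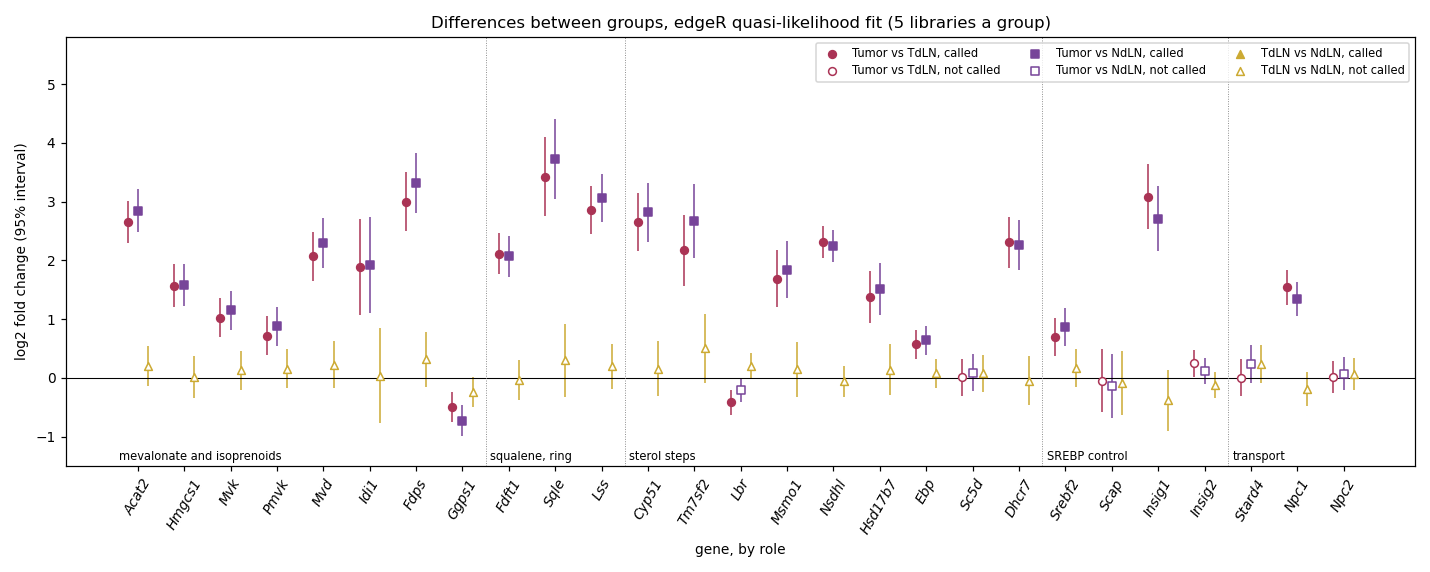
Log2 fold change (vertical axis) of each of the 27 genes, ordered by role, in the 3 comparisons, with the 95% interval of the edgeR fit. Filled symbols passed an adjusted p of 0.05. Sqle has the highest value in both comparisons of Tumor with a node. Ggps1, Lbr (not called against NdLN) and Scap (not called in either) are below 0 in both. Values of TdLN against NdLN lie between -0.38 and 0.50 and are all open symbols.

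Reads of 50 bases cannot always be placed in 1 gene of this set. In GENCODE M21, 86.4% of the 50-base stretches of the principal Fdps transcript also occur in transcripts of other genes, among them several predicted pseudogenes and the overlapping Gm43738. The share was 45.9% for Acat2 (mainly Acat3, and Tcp1), 30.7% for Fdft1 (mainly the overlapping Ctsb on the opposite strand), 30.5% for Idi1 and 13.6% for Hmgcs1. It was 13.1% for Scap, 11.8% for Ggps1, 11.3% for Lbr and 8.95% for Npc1, and under 5% for Lss, Cyp51, Insig1 and Sc5d. For Mvk, Pmvk, Mvd, Sqle, Msmo1, Nsdhl, Hsd17b7, Ebp, Dhcr7, Tm7sf2, Insig2, Stard4, Srebf2 and Npc2 it was 0%. Exons of 6 of the 27 genes overlap those of another counted gene: Fdft1 (Ctsb), Cyp51 (Akap9), Tm7sf2 (Vps51), Lbr (Dnah14), Ggps1 (Arid4b) and Npc1 (Rmc1). Counts of the genes with shared stretches or overlaps, Fdps above all, are therefore uncertain, both genes called lower included, while those of Sqle, Nsdhl and Dhcr7 do not have this limit among annotated transcripts.

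Because most of these genes moved together, the 250 bases before their transcript starts were read for motifs, in RefSeq promoter windows of GRCm38.p6 that covered 22 of the 27 genes in 28 windows. Sqle, Fdps, Fdft1, Stard4 and Npc1 had no window and were not searched. The classical sterol regulatory element bound by SREBP, which reads ATCAC and then directly CCCAC, was searched on both strands with at most 1 mismatch and matched 3 member windows, of Hmgcs1, Srebf2 and Nsdhl. It matched 1.65% of all 32851 windows, and 1.94% of the 10818 tested genes with a window had a match. These 3 windows are shown because they carry that match, 5′ to 3′ on the strand of the gene, with the element and every CCAAT box (CCAAT, or ATTGG on the other strand) in capitals. That of Srebf2 is shown up to the first base of the gene in GENCODE M21, 162 of its bases.
Hmgcs1 (chr13:119690101-119690350, plus strand): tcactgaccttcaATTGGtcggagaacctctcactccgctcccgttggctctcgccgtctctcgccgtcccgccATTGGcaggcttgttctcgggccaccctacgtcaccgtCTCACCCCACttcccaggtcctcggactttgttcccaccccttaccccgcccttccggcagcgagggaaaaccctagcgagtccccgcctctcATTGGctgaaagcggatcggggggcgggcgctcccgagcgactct
Srebf2 (chr15:82147019-82147180, plus strand): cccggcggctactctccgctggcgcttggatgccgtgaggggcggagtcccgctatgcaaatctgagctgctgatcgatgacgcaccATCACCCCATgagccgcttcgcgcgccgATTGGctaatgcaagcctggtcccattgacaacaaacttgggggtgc
Nsdhl (chrX:72918271-72918520, plus strand): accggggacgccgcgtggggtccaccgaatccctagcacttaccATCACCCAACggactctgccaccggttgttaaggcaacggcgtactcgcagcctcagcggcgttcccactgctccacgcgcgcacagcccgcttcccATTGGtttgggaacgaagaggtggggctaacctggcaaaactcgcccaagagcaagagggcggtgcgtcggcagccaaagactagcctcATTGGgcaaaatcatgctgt
The element spans bases 138 to 129 before the RefSeq start in Hmgcs1, 163 to 154 in Srebf2 and 206 to 197 in Nsdhl, and each differs from the searched letters at 1 base.

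The CCAAT box, the motif of the factor NF-Y, which is known to act with SREBP, was more widespread. It was present in 20 of the 28 member windows, and 20 of the 22 genes had it in at least 1 window, against 33.8% of all windows and 40.5% of the 10818 tested genes with a window. Acat2 and Scap had none. Ggps1 and Lbr, which fell, had it, as did Insig2, Sc5d and Npc2, which did not pass. The GC box GGGCGG (or CCGCCC) was in 22 of the 28 windows and in at least 1 window of 20 of the 22 genes, against 32.7% of all windows and 62.8% of the tested genes. A match describes the letters only, and the windows were searched after the values were known.

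**Figure D3:**
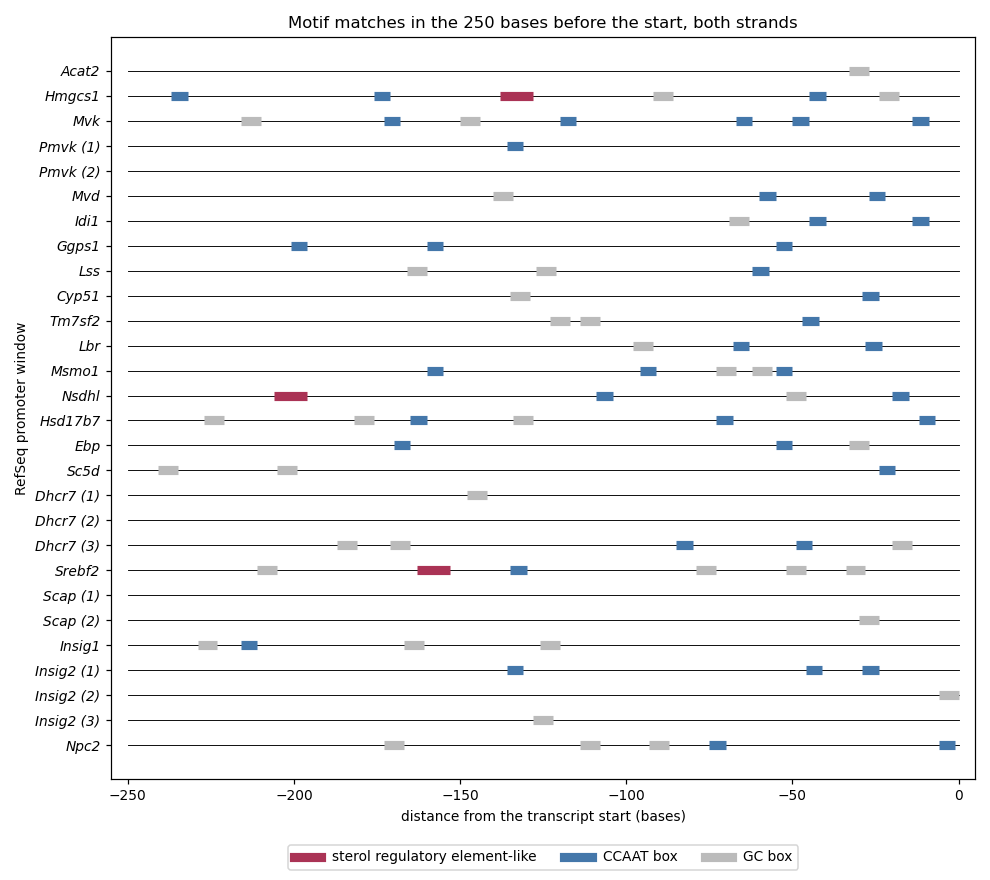
Matches to the sterol regulatory element (at most 1 mismatch), the CCAAT box and the GC box along 28 promoter windows of 22 genes, by distance in bases from the transcript start (horizontal axis, start at 0). Numbers in brackets tell apart windows of 1 gene. Among these 22 genes the element appears in Hmgcs1, Nsdhl and Srebf2 only, while CCAAT boxes appear in 20 of the 28 windows.

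Against the non-draining node the picture of the tumor libraries was much the same, and it shares its Tumor libraries with the comparison above. Of the 27 genes 20 were higher and 1, Ggps1, was lower, with 34% and 32.5% of all tested genes called in those directions, 66.5% together. The median log2 fold change was 1.58, against 0.04 over all tested genes. Sqle (3.73 ± 0.32), Fdps (3.31 ± 0.24) and Lss (3.06 ± 0.19) had the highest values here, and Insig1 was at 2.71 ± 0.26. Lbr, at 170 ± 13.98 CPM in NdLN libraries, did not pass here (-0.21 ± 0.10, edgeR adjusted p = 0.0686), but it passed under 4 of 19 alternatives. Stard4 (0.24 ± 0.15) passed only without NdLN 5.

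Did the draining node differ from the non-draining node? No cholesterol gene passed: 0 of 27 were higher and 0 lower in edgeR's test, while 1.84% and 1.64% of all tested genes were, 3.49% together. DESeq2 and voom called 0 as well. In edgeR's test 1 gene had an unadjusted p under 0.05, namely Lbr (0.21 ± 0.10 on the log2 scale, adjusted p = 0.277). The share of all tested genes by that unadjusted rule was not counted. The differences were small, with a median log2 fold change of 0.13 over the 27 genes and -0.01 over all tested genes, and for 26 of the 27 genes the 95% interval lay within a log2 change of 1 in either direction. The exception was Tm7sf2 (0.50, 95% interval -0.10 to 1.09), which was at 3.83, 1.77, 1.92, 4.53 and 4.57 CPM in NdLN 1 to 5.

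Sqle had the widest interval of the synthesis enzymes with more than 10 CPM. It stood at 29.1, 12.1, 33.4, 19.7 and 39.9 CPM in NdLN 1 to 5 against 51.1, 18.02, 28.0, 28.0 and 40.0 CPM in TdLN 1 to 5, so the groups overlapped (0.30 ± 0.29). Insig1 had the lowest log2 difference, -0.38 ± 0.24 (edgeR adjusted p = 0.458), from 33.8, 17.1, 41.2, 24.1 and 33.1 CPM in NdLN 1 to 5. Ggps1 was the single gene of the 27 whose node libraries did not overlap, at 46.9, 50.6, 47.2, 53.1 and 50.3 CPM in NdLN against at most 46.7 CPM in TdLN. It did not pass (-0.24 ± 0.12, edgeR adjusted p = 0.33), and 4.95% of all tested genes had non-overlapping libraries with a lower TdLN level (2.87% had a higher level).

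The direction of the node differences rested on 1 library. With all libraries 19 of the 27 genes had a positive log2 difference, and without NdLN 2 this was 13 of 27, with a median of -0.004. NdLN 2 was the lowest of the 5 NdLN libraries for 22 of the 27 genes and for 18 of the 20 enzymes, whereas it was the lowest for 23% of all tested genes. Its 20 enzymes had a median log2 deviation of -0.70 from the mean of the other 4 NdLN libraries (log2 of CPM + 0.1), while all tested genes had -0.01. Examples were Cyp51 at 26.5 CPM against 36.0 to 70.5, Msmo1 at 45.7 CPM against 75.6 to 135 and Srebf2 at 99.3 CPM against 135 to 161.

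TdLN 2 was the lowest TdLN library for 13 of the 27 genes and for 12 of the 20 enzymes, against 17.1% of all tested genes, and TdLN 1 the highest for 16, against 23.4%. The range within a node group could thus exceed the difference between the groups: Sqle spanned 12.1 to 39.9 CPM within NdLN, whereas the group means were 26.8 and 33.0 CPM. NdLN 2 also had the highest summed levels of lymphatic (8403 CPM), pan-endothelial (5537 CPM) and blood endothelial markers (6013 CPM) of its group. The sum of 10 cell cycle genes was highest in TdLN 1 (784 CPM) and second highest in TdLN 2 (528 CPM), with 198 to 430 CPM in TdLN 3 to 5. The libraries highest and lowest for most of the 27 genes in TdLN thus both had high cell cycle sums. The part of these markers in the cholesterol values was not tested.

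**Figure D4:**
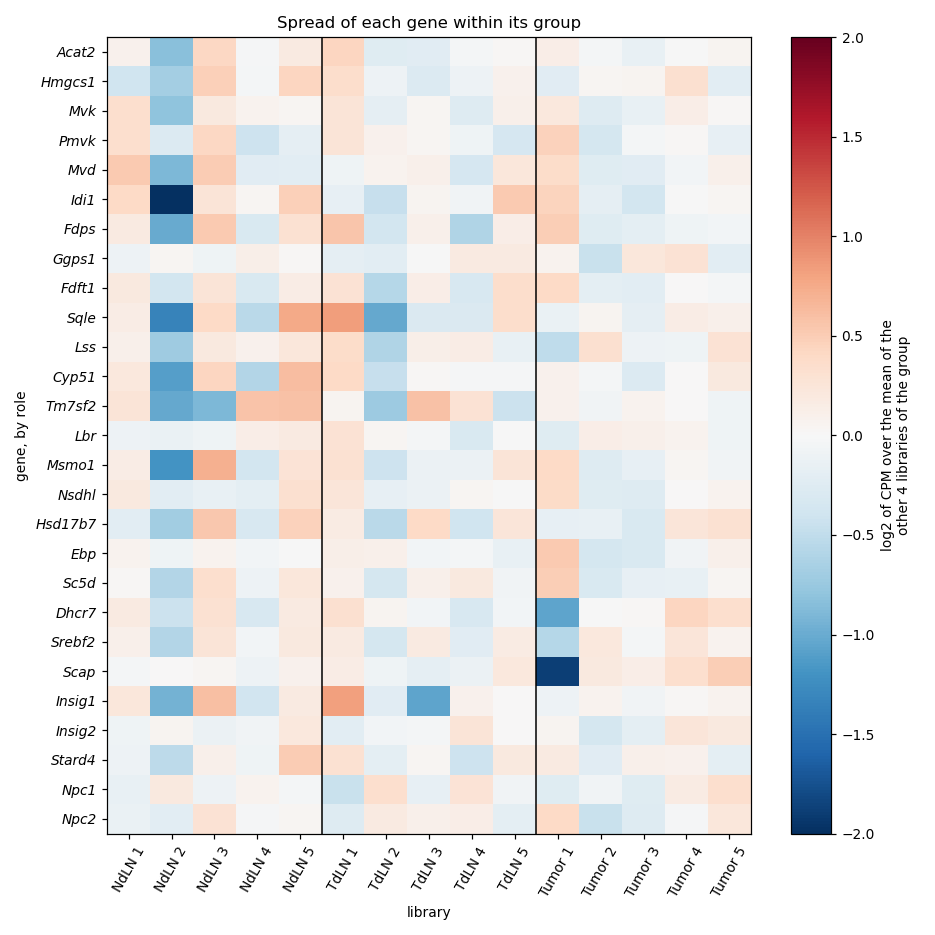
Log2 of each gene's CPM over the mean of the other 4 libraries of its group (colour, CPM + 0.1 before taking the ratio), for 27 genes by role (rows) and 15 libraries (columns). NdLN 2 is blue through most of the synthesis rows, TdLN 2 more weakly, and in Tumor 1 Scap and Dhcr7 are low while Fdps is high.

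The Tumor libraries also differed among themselves, in another way. Tumor 1 was the highest for 14 of the 27 genes and the lowest for 8, so that its median deviation for the 27 genes was 0.09 on the log2 scale. The principal transcripts had a median length of 2106 bases for the 14 genes and 3868.5 bases for the 8, which included Scap, Srebf2, Dhcr7, Lss and Npc1. Among all tested genes Tumor 1 was the highest for 32.6% and the lowest for 30.7%. Tumor 1 also had the fewest counts (23830337), the lowest summed lymphatic (3381 CPM), pan-endothelial (1329 CPM) and fibroblast (857 CPM) markers of its group and the highest macrophage sum (238 CPM). A part of these, or of transcript length, in its values was not tested. Without Tumor 1 the same numbers of genes passed against TdLN, 20 higher and 2 lower.

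Per transcript length, the order of the genes differed between node and tumor libraries. In TdLN libraries Npc2 (82.4 ± 8.96 CPM per kilobase), Lbr (56.1 ± 6.54), Ebp (54.8 ± 3.50) and Msmo1 (50.3 ± 8.26) were the most abundant, and the last 3 overlap within their SD. In Tumor libraries Fdps (177 ± 30.8 CPM per kilobase), Msmo1 (162 ± 23.99), Sqle (129 ± 10.5) and Cyp51 (90.8 ± 8.73) led, while Npc2 was at 82.9 ± 15.9. The order depends on the principal transcript taken for each gene. That of Fdps has 1382 bases and that of Msmo1 2044, while all their annotated exons span 4208 and 6144 bases. Counts of Fdps are also uncertain, since 86.4% of its 50-base stretches are shared. Idi1 was the lowest in all 3 groups, with 0.368 ± 0.163 CPM per kilobase for NdLN, 0.378 ± 0.0845 for TdLN and 1.401 ± 0.245 for the Tumor group.

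**Figure D5:**
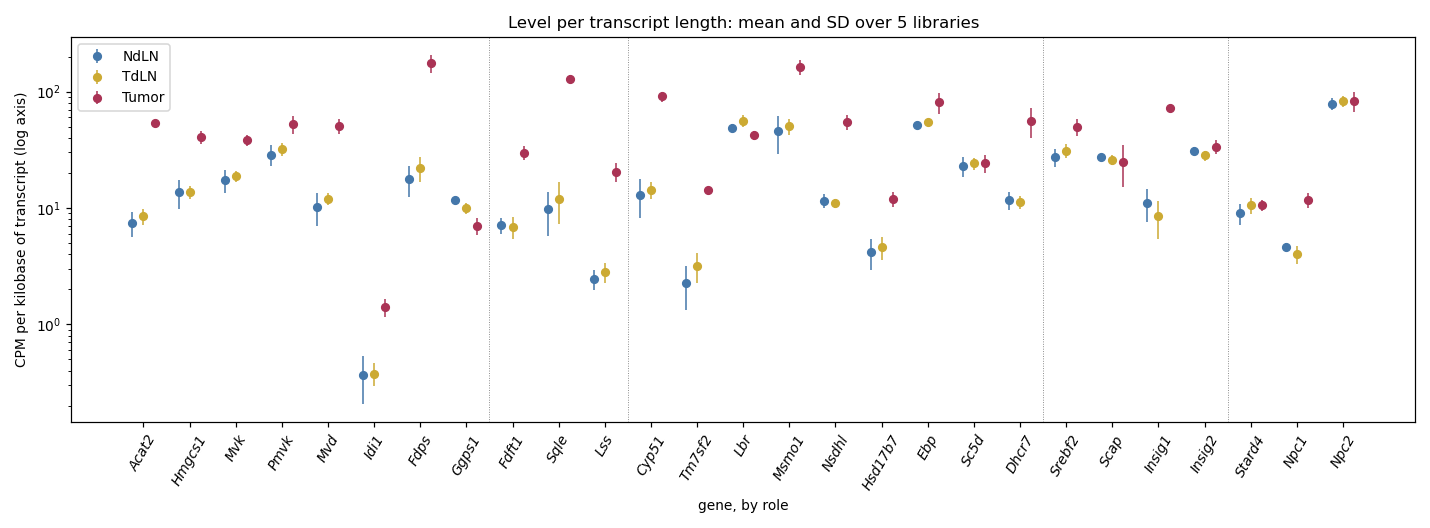
CPM per kilobase of principal transcript (vertical axis, log scale) of the 27 genes by role, as mean and SD over the 5 libraries of each group. The levels of NdLN and TdLN lie close together for all genes, Tumor levels of Fdps, Sqle, Cyp51 and Msmo1 are the highest among the enzymes, and Idi1 is the lowest gene in each group.

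Neighbouring pathways were read from 4 further lists. Of 12 genes of fatty acid synthesis and desaturation, the route governed by the related factor SREBP1, 10 were higher in Tumor than in TdLN libraries and 1 was lower, beside 31.9% and 30.1% of all tested genes. Scd2, a desaturase, was at 286 ± 65.6 CPM in TdLN and 1852 ± 541 CPM in Tumor libraries (log2 fold change 2.69 ± 0.22), and Elovl6, an elongase, rose by 2.16 ± 0.25, Me1, the malic enzyme, by 1.57 ± 0.15 and the desaturase gene Scd1 by 1.00 ± 0.11. Acacb, an acetyl-CoA carboxylase, fell by 1.74 on the log2 scale, and Srebf1 itself did not pass (0.17 ± 0.17); both were singled out after their values were seen. The list's median log2 fold change was 0.95, beside 0.04 over all tested genes.

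In Tumor against TdLN, the machinery that cleaves SREBP or degrades its regulators had 0 of 10 genes higher and 3 lower in edgeR's test. Of all tested genes 31.9% and 30.1% were, so the list's share of lower genes was that of all genes. In that comparison DESeq2 and voom also called 0 higher, as did edgeR's unadjusted p under 0.05. The lower genes were Mbtps1 (-0.89 ± 0.13) and Mbtps2 (-0.67 ± 0.20), which encode the proteases that release SREBP in the Golgi, and Erlin1 (-0.96 ± 0.13), an endoplasmic reticulum protein that binds cholesterol. Mbtps1 was at 220 ± 9.69 CPM in TdLN and 118 ± 24.6 CPM in Tumor libraries. Erlin2 (-0.30 ± 0.13) did not pass. Against NdLN, however, edgeR, DESeq2 and voom each called 2 of the 10 genes higher in Tumor and 4 lower. Of all tested genes edgeR called 34% and 32.5% in those directions.

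Genes of lipoprotein uptake and sterol transport went both ways in Tumor against TdLN, with 3 of 14 higher and 4 lower. Neither share was above that of all tested genes (31.9% and 30.1%). Tmem97, which encodes a binding partner of NPC1 and is a known SREBP target, was at 10.5 ± 2.53 CPM in TdLN and 94.9 ± 17.9 CPM in Tumor libraries (3.17 ± 0.22). Mylip, an LXR target whose product degrades lipoprotein receptors, fell from 101 ± 18.1 to 15.8 ± 3.38 CPM (-2.67 ± 0.16). Lrp1, a large endocytic receptor, rose by 4.74 ± 0.62 from 2.596 ± 1.202 CPM, in the libraries in which the fibroblast and macrophage markers were higher as well. Scarb2, a lysosomal membrane protein, fell by 1.25 on the log2 scale. The other genes that passed, named after their values were seen, were the lipoprotein receptor genes Lrp8 (4.38 ± 0.90) and Vldlr (-0.81 ± 0.20) and the sterol transfer gene Gramd1c (-0.77 ± 0.31).

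Of 13 genes that use isoprenoids 5 were higher and 3 lower in Tumor than in TdLN libraries, shares near the 31.9% and 30.1% of all tested genes. Pdss1, a polyprenyl synthase of ubiquinone synthesis, rose by 2.19 ± 0.32 and Rabggtb, a subunit of the prenyltransferase of Rab proteins, by 1.12 ± 0.17. Pggt1b, a subunit of another protein prenyltransferase, fell from 41.4 ± 5.48 to 16.4 ± 2.10 CPM (-1.33 ± 0.12). Zmpste24, a protease of prenylated proteins, fell by 0.66 on the log2 scale. The other genes that passed, again named after their values were seen, were Rce1 (0.56 ± 0.12), Fntb (0.61 ± 0.25) and Fnta (0.38 ± 0.16), higher, and Dhdds (-0.44 ± 0.08), lower.

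Between TdLN and NdLN 0 of the 49 genes of these 4 lists passed in edgeR's test, beside 3.49% of all tested genes. At an unadjusted p under 0.05 edgeR gave 6 of them, and the share of all tested genes by that rule was not counted. After adjustment DESeq2 called 2 of them and voom 1, beside 995 and 817 calls over all genes. Among the genes with the smallest adjusted p in their list were Rnf139, a ubiquitin ligase of the endoplasmic reticulum (0.38 ± 0.23), Lrp1 (-1.56 ± 0.56), Scd1 (-0.28 ± 0.11) and Rabggta, the partner subunit of Rabggtb (-0.30 ± 0.11). Stard3, a late endosomal sterol carrier (0.29 ± 0.11), Me1 (0.27 ± 0.15) and Pggt1b (-0.20 ± 0.12) did not pass either.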

How the data were processed

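The deposited table holds raw counts, which the authors did not normalize, for each gene in 15 libraries. The submitters' processing notes list CASAVA 1.8.2, STAR 2.4, featureCounts 1.4.6 and the build GRCm38. The annotation release and strand setting were not given in those sources. Per the labels' protocols the cDNA was amplified from a low input with a SMARTer Ultra Low kit and read in single reads of 50 bases. That kit does not mark strand, so reads of a gene cannot be separated from those of an overlapping or antisense partner. Symbols, coordinates and transcript lengths (best APPRIS principal transcript) come from GENCODE M21, which held 21628 of 21839 IDs.

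Testing used the quasi-likelihood method of edgeR 4.0.16 (R 4.3.3, robust fit, TMM factors, filterByExpr) in 1 fit of all 15 libraries, with Benjamini-Hochberg adjustment over 13887 genes. The SE was taken from the F statistic. Alternatives were RLE and upper quartile factors, leaving out the filter, a filter of CPM 10 or more in 5 libraries, DESeq2 1.42.0, voom with limma 3.58.1, fits of only the groups compared, a replicate block, glmTreat, and each library left out. The edgeR step was tested on simulated data in which far fewer genes differed than between Tumor and node libraries. That simulation therefore does not check the scaling where so many genes differ. Libraries of 1 group differed beyond sampling noise (lowest mean chi-square per gene 28.3). Intervals cannot account for amplification, since such reads are not independent molecules.

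All 27 members are named. Each further list has up to 4 genes named by the smallest adjusted p in Tumor against TdLN, and up to 2 in TdLN against NdLN; 1 of these genes is not reported here. The members, lists and motifs were chosen with earlier results of these data known. Figures were drawn with matplotlib 3.10.9.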

Additional observations from a re-analysis of the deposited data

Results flagged for a closer look

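In 4 of the 81 sets of 5 libraries (27 genes in 3 groups), 1 library lay far from the other 4 by Dixon's ratio (gap over range above 0.71), and chance flags about 1 set in 20. Idi1 was at 0.261 CPM in NdLN 2, against 1.14 to 1.47 CPM in the other NdLN libraries. Lss was at 7.56 CPM in the same library, against 12.0 to 12.95 CPM. Fdps was at 318 CPM in Tumor 1, against 213 to 237 CPM, and without Tumor 1 its log2 fold change over TdLN was 2.88. Scap was at 33.4 CPM in Tumor 1, against 113 to 138 CPM in the other Tumor libraries.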

How the results depend on the processing

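The count of higher genes in Tumor stayed between 16 (glmTreat) and 21 of 27 in both comparisons, and that of TdLN against NdLN at 0, over 19 alternatives each. The count of lower genes against TdLN was 2 except for 0 with glmTreat against a log2 fold change of 1. Against NdLN, where it was 1, it was 0 with glmTreat and 2 with upper quartile factors, with CPM of at least 10 in 5 libraries and with voom, and 1 to 2 with a library left out (2 without Tumor 2). In every case the second gene was Lbr. Under glmTreat Mvk, Pmvk, Ebp, Srebf2 and Ggps1 lost their call in both comparisons and Lbr against TdLN. Of 1536 values of single genes under the alternatives, none of a called gene changed sign, while 52 of genes not called did. The median log2 fold change of the 27 genes against TdLN ranged from 1.49 to 1.64. Over all genes TdLN against NdLN had 484 calls, but 995 with DESeq2, 817 with voom, 0 with glmTreat and 225 to 564 with a library left out: 245, 307, 277 and 319 without NdLN 2, 3, 4 or 5 and 225, 258 and 315 without TdLN 1, 2 or 3. Tumor against TdLN had 8614, but 3525 with glmTreat, and Tumor against NdLN 9230, but 4189. The labels do not say that replicate numbers pair libraries. Deviations of log2 CPM from the group mean, over all tested genes, correlated at -0.21 to 0.248 between same-numbered libraries of different groups. By these deviations 3 of 15 matched best with their own number. With the replicate block 20 genes were higher and 2 lower against TdLN, 20 and 1 against NdLN and 0 and 0 between the nodes, with 8381, 8995 and 400 calls over all genes. Depth limits Idi1 most, with 186 counts over the 5 NdLN libraries.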
